A study of Spodoptera frugiperda with 15 samples.

Results

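Fall armyworm (*Spodoptera frugiperda*) is a moth whose caterpillars feed on maize and many other crops. RNA from whole bodies of the wild-type insect was sequenced after treatment with tetrazolidamide and from a control, with 3 libraries in each group. The comparison is described over all genes with at least 1 FPKM (fragments scaled by transcript length and by the number mapped) in 3 or more of these 6 libraries. That choice held 10279 of the 20784 genes in the table, and 10277 of these had enough counts to be tested. The table also holds 3 libraries each for emamectin benzoate, cyantraniliprole and spinetoram, 15 in all. The labels give tetrazolidamide by name alone. They state no dose, exposure time, sex or developmental stage. Whether replicate libraries came from separate animals, pools or cultures is not stated, so a p-value here measures the spread between these samples, which may be technical.

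A caterpillar grows by moulting. A pulse of ecdysteroid hormone switches on a cascade of nuclear receptors, the epidermis secretes a new cuticle, and the animal feeds again once the old one is shed. The midgut, the epidermis, muscle and the fat body make up most of the body, so a whole-body library mixes their transcripts. In such bulk samples fewer cells of a type and less RNA per cell cannot be told apart.

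Totals ran from 55291297 to 72890997 estimated count units in these 6 libraries. Of the 10279 genes, 8000 were at 1 FPKM or more in all 6 libraries. A further 164 reached it in the 3 tetrazolidamide libraries and in no control library, and 359 in the 3 control libraries and in no tetrazolidamide library, so these entered only through the group in which they were high. At the edge of the rule, LOC118277103 had a third-highest value of 1.0003 FPKM and was kept. LOC118266263, described as glucose dehydrogenase-like, had 0.9988 FPKM and was not.

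The 3 control libraries differed among themselves. Summed FPKM of the 7 silk gland markers was 3.51 to 82.4 with tetrazolidamide, against 245, 256 and 2745 in control libraries 1, 2 and 3. Epidermal markers summed to 58951 to 71599 FPKM with tetrazolidamide and 33338 to 44280 in control, with 59 of 113 expressed markers higher and 5 lower. Muscle markers overlapped, at 99803 to 134365 against 75410 to 123722 FPKM, with 0 of 18 expressed markers called. Midgut markers also overlapped, at 7238 to 10093 against 5963 to 8522 FPKM, with 17 of 78 higher and 6 lower. Nervous system markers lay at 119 to 139 against 112 to 125 FPKM. The fat body list had 1 of 5 expressed markers higher and 1 lower, the haemocyte list 3 of 11 higher and 4 lower, and the testis list 2 of 17 higher and 1 lower. For comparison, 15.1% of all expressed genes were called higher and 12.8% lower (edgeR, adjusted p under 0.05). Epidermal markers were genes described as cuticle proteins, and silk gland markers were fibroins and sericins. Midgut markers included peritrophins, trypsins and aminopeptidase N-like genes. These markers share members with the gene lists below, so they are no separate measure of tissue. The part of these tissue markers in the results that follow was not tested.

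Lists of cuticle, proton pump and transporter genes had more members higher than lower after tetrazolidamide, and lists of glycolysis, proteasome, silk and moulting hormone genes had more members lower than higher. Of the 10277 expressed genes tested, 1554 were higher than in control and 1314 were lower, 27.9% in all (15.1% higher and 12.8% lower; edgeR, adjusted p under 0.05). The median log2 fold change was 0.03 over all expressed genes, 1.24 over those called higher and -1.17 over those called lower. More than 8-fold changes were called for 206 genes in the higher and 235 in the lower direction. FPKM values of the 2 groups did not overlap for 39.4% of expressed genes (16.4% higher and 22.9% lower). The balance of directions depended on the tool, with 1286 higher and 1553 lower by limma-trend on log2(FPKM + 0.1), and 1299 and 1515 on log2(FPKM + 1). In a fit of only these 6 libraries 1513 genes were called. Against a threshold of a 2-fold change 609 were. Among the 8000 genes at 1 FPKM in all 6 libraries, 1273 were higher and 820 lower.

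**Figure D1:**
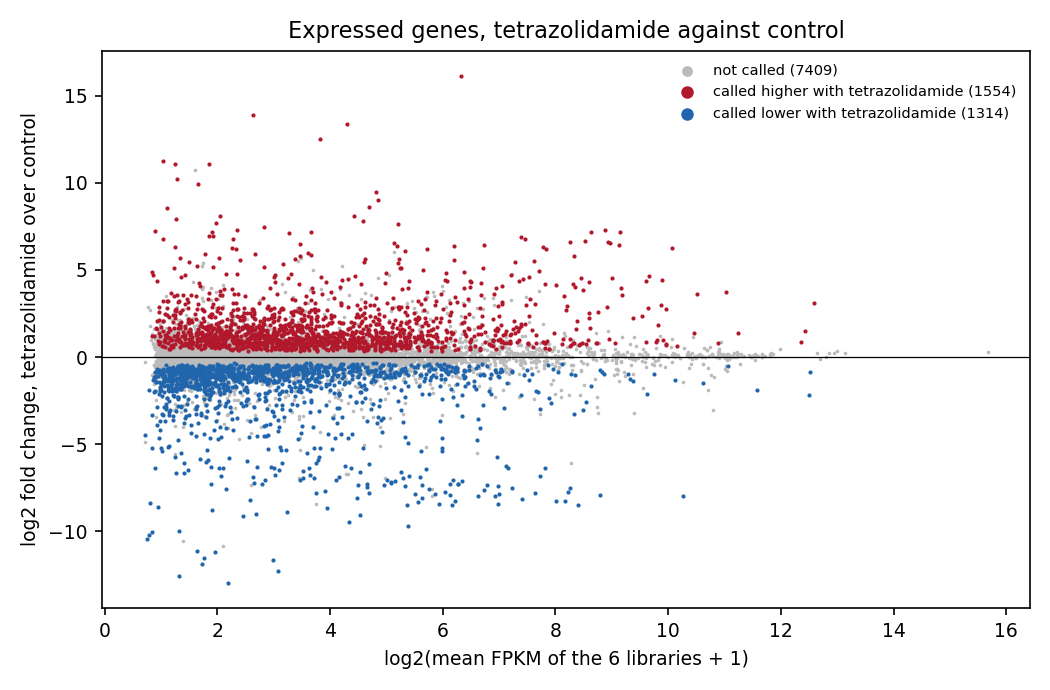
Each point is 1 expressed gene, with its log2 mean FPKM over the 6 libraries on the horizontal axis and its log2 fold change, tetrazolidamide over control, on the vertical axis. The 1554 genes called higher (red) and 1314 called lower (blue) spread over the whole range of levels, and fold changes of genes without reads in a group depend on the prior count of the fit.

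The 10 largest rises without overlap held transporters, structural and gut proteins. Organic cation transporter protein-like LOC118280301, of a family that carries charged small molecules across membranes, had 12.3, 5.46 and 13.3 FPKM in the tetrazolidamide libraries and no reads in the 3 control libraries, at least 452-fold higher (adjusted p = 0.0051). REPAT46 (LOC118277173), of a moth gut protein family named for its response to pathogens, had 981, 473 and 897 FPKM against 7.31, 3.80 and 7.16 FPKM in control (log2 fold change 7.17, SE 0.95, adjusted p = 0.00056). All 3 treated libraries lay far above the controls in both genes, and REPAT46 also stood above the 9 libraries of the other treatments, which reached 111 FPKM. Trypsin-1-like LOC118271895, a digestive serine protease, had 16.8, 7.51 and 12.4 FPKM against 0.154, 0 and 0.0484 FPKM (log2 fold change 7.49, adjusted p = 0.0077). A gene described as a sarcoplasmic reticulum histidine-rich calcium-binding protein (LOC118278096) had 23.1, 25.9 and 20.3 FPKM against 0.210, 0.176 and 0.117 FPKM (7.19, adjusted p = 0.0032). The other 6 were peritrophin-44-like LOC118279986, cuticle protein 19-like LOC118275749, the mediator subunit 15-like genes LOC118276931 and LOC118276902, and LOC118276284 and LOC118271288, both described as abscisic acid and environmental stress-inducible. Their fitted log2 fold changes lay from 7.65 to 13.37. The last of them, LOC118271288, at an adjusted p of 0.026, was no longer called without control 1 (0.072), control 2 (0.081), control 3 (0.05), tetrazolidamide 1 (0.053) or tetrazolidamide 3 (0.056).

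The 10 largest falls held cuticle, repeat-rich and metabolic genes. A putative cuticular protein (LOC118275417) had 11.1, 9.65 and 5.66 FPKM with tetrazolidamide against 2707, 713 and 3926 FPKM in control (log2 fold change -7.97, SE 1.73, adjusted p = 0.0069). Glycine-rich protein DOT1-like LOC118279384 had 3.82, 2.86 and 3.11 against 928, 222 and 1500 FPKM (-7.90, adjusted p = 0.0071). In both genes control 2 was the lowest control and still stood far above the treated libraries. The libraries of the other treatments spanned both levels, from 0.871 to 1442 FPKM for the cuticular protein. The acidic repeat-containing protein-like genes LOC118281870 and LOC118264687 fell by 8.42 and 7.96 on the log2 scale. A cholinesterase 1-like gene (LOC118262776), of the carboxylesterase family, had 0, 0.0530 and 0 FPKM against 1.97, 12.8 and 17.8 FPKM (adjusted p = 0.011), and 0.061 with limma-trend on log2(FPKM + 1). The histidine-rich protein PFHRP-II-like genes LOC118262126 and LOC118261991 fell by 8.49 and 7.94, with adjusted p from 0.055 to 0.066 when tetrazolidamide 1, 2 or 3 was left out. Synaptic vesicle glycoprotein 2C-like LOC118270044 fell by 8.17 (adjusted p = 0.043), and was not called without control 1 (0.054), control 3 (0.088), tetrazolidamide 1 (0.12), 2 (0.094) or 3 (0.12), or with limma-trend on log2(FPKM + 1) (0.072). The remaining 2 were Sm D2 (LOC118270397), described further on, and fructose-bisphosphate aldolase-like LOC118275099.

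Ecdysteroid and juvenile hormone genes moved in both directions. Of 27 expressed members, 10 fell, 4 rose and 13 did not pass, and their median log2 fold change was -0.47, against 0.03 over all expressed genes. Ecdysteroids act through a receptor made of the ecdysone receptor and ultraspiracle, which in insects switches on early genes such as E74, E75 and broad and then the receptors HR3, HR4 and E78 and later FTZ-F1. Nuclear hormone receptor HR3 (LOC118279845) had 0.290, 0.408 and 0.351 FPKM with tetrazolidamide against 10.3, 4.47 and 34.1 FPKM in control (log2 fold change -5.33, SE 0.78, adjusted p = 0.00087). Ecdysone-induced protein 78C-like LOC118261897 had 0.152, 0.385 and 0.0966 FPKM against 1.63, 1.5 and 4.11 FPKM (-3.38, SE 0.55, adjusted p = 0.0017). In both genes the 3 treated libraries were uniformly low and control 3 was the highest.

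A further 3 receptor genes of the cascade were chosen after their values were seen. One hormone receptor 4 gene (LOC118262489) fell to 0.577, 0.167 and 0.481 FPKM, against 6.35, 2.43 and 3.57 FPKM in control (log2 fold change -3.18, adjusted p = 0.0077). The other (LOC118262341) had 1.13, 0.709 and 1.35 against 10.8, 1.36 and 3.35 FPKM and did not pass (adjusted p = 0.19). A second HR3 gene (LOC118279815) had 0.311, 0.223 and 0.272 against 3.40, 1.61 and 4.58 FPKM, and its adjusted p of 0.036 became 0.064 to 0.1 when control 1, control 3 or any 1 tetrazolidamide library was left out.

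Ecdysone-induced protein 74EF (LOC118263008), an early transcription factor of the cascade, went the other way, with 18.5, 11 and 19.4 FPKM against 2.15, 1.86 and 4.76 FPKM (log2 fold change 2.67, SE 0.36, adjusted p = 0.00056). Nuclear receptor HR96 (LOC118270436), which in flies takes part in responses to foreign chemicals and lipids, had 4.07, 3.67 and 4.29 against 1.22, 1.08 and 1.59 FPKM (1.78, SE 0.15, adjusted p = 4.3e-05). Both were above every control library, and E74EF was also above the 9 libraries of the other treatments, which reached 6.53 FPKM. The ecdysteroid-regulated 16 kDa protein gene (LOC118267732), also chosen after its values were seen, had 200, 128 and 176 against 16.8, 19.8 and 78.3 FPKM (2.34, adjusted p = 0.0066, and 0.058 in a fit of the 6 libraries).

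The receptor subunits themselves did not pass. The ecdysone receptor (LOC118267067) had 18.8, 15.3 and 10.7 FPKM against 17.7, 22.1 and 19.1 FPKM (adjusted p = 0.3), and the ultraspiracle receptor (LOC118273518) 21.3, 24.5 and 23 against 14.3, 20.8 and 18.2 FPKM (adjusted p = 0.065). FTZ-F1 (LOC118267427) had 33.6, 45.4 and 20.8 against 20, 3.56 and 4.38 FPKM without overlap (log2 fold change 1.91, SE 0.71, adjusted p = 0.072). Ecdysone 20-monooxygenase (LOC118278003), which makes the active hormone, fell to 4.50, 3.11 and 2.22 FPKM against 6.55, 12.4 and 16.0 FPKM (-1.69, adjusted p = 0.0073). These 4 genes were likewise chosen after their values were seen. The count of falling members was 6 without tetrazolidamide 1 or tetrazolidamide 3, and 6 in a fit of the 6 libraries, where 2 rose.

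Of 15 expressed neuropeptide and receptor genes 4 rose and 0 fell (median 0.63), 26.7% higher against 15.1% over all expressed genes. Eclosion hormone (LOC118269902), a brain peptide that triggers the shedding of the old cuticle, had 2.40, 3.85 and 6.44 FPKM against 0.188, 0.364 and 0.256 FPKM in control (log2 fold change 4.09, SE 0.95, adjusted p = 0.0097). Its lowest treated library stood above all 12 other libraries, of which the highest had 0.708 FPKM. Diuretic hormone class 2 (LOC118276433) had 5.83, 4.95 and 4.69 against 2.40, 0.740 and 3.26 FPKM (1.43, adjusted p = 0.016, and 0.11 in a fit of the 6 libraries). The count of rising members was 2 without tetrazolidamide 1 and 1 in a fit of the 6 libraries.

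Takeout and juvenile hormone binding proteins, secreted carriers of small lipids, had 6 of 21 expressed members higher and 1 lower (28.6% and 4.8%, median 0.67). The shares over all expressed genes were 15.1% and 12.8%. Takeout-like LOC118276090 had 356, 255 and 371 FPKM against 14.2, 9.33 and 26.7 FPKM (log2 fold change 4.47, SE 0.53, adjusted p = 0.00029). Takeout LOC118275983 had 35.7, 39.6 and 36.6 against 3.86, 4.64 and 7.31 FPKM (2.98, SE 0.26, adjusted p = 4.3e-05). Neighbouring takeout-like genes LOC118262190 and LOC118262191, chosen after their values were seen, rose by 2.98 and 3.03. The member that fell was juvenile hormone-binding protein-like LOC118276400, at 162, 288 and 86.2 against 284, 520 and 1024 FPKM, where the groups overlapped. Its adjusted p of 0.03 was 0.052 to 0.1 without control 2, control 3, tetrazolidamide 1 or tetrazolidamide 3, and 0.1 in a fit of the 6 libraries.

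**Figure D2:**
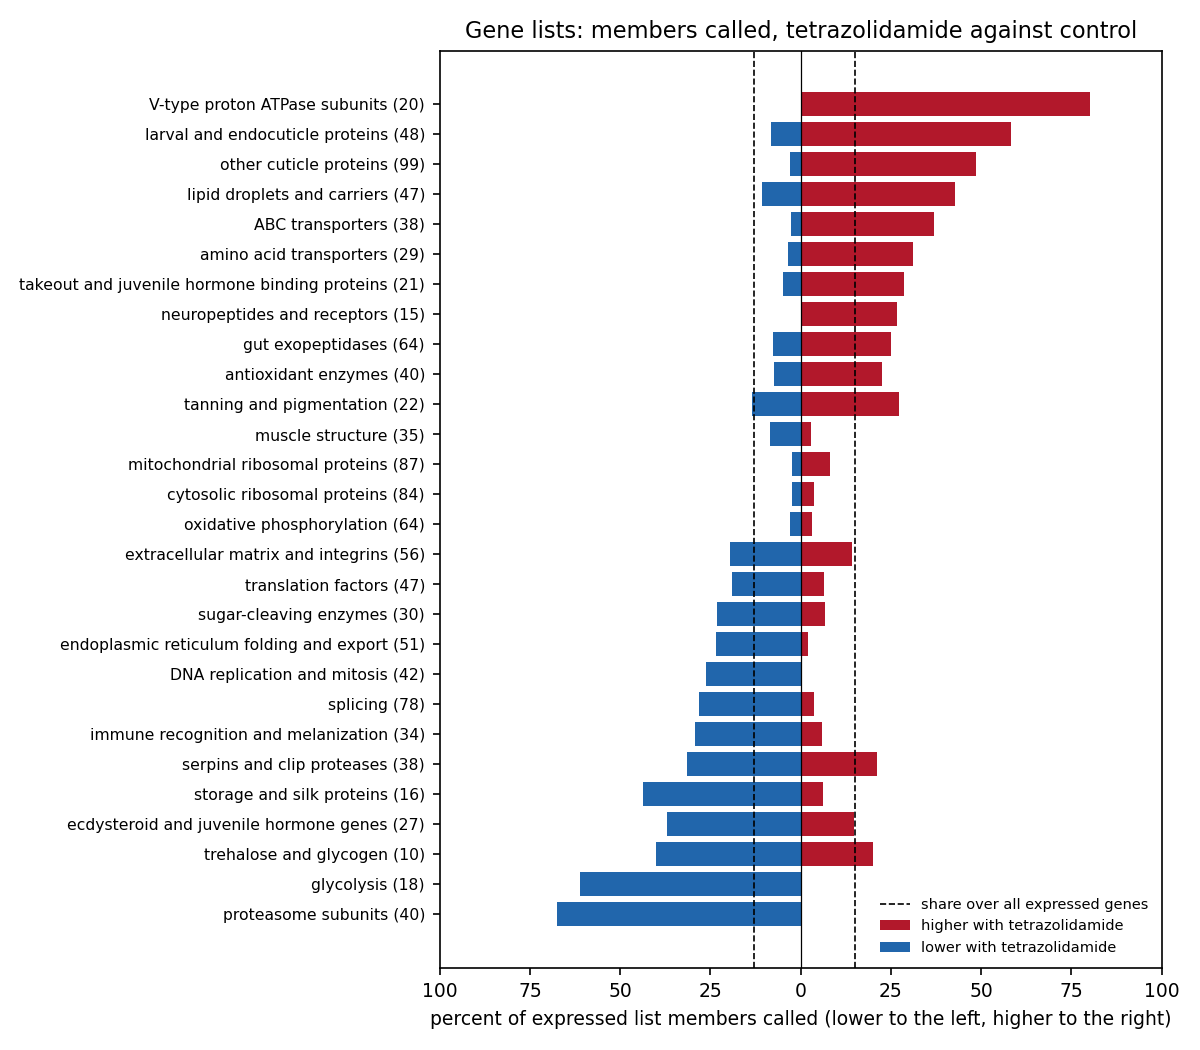
Bars give the percent of expressed members of each gene list (number in brackets) called higher (red, right) or lower (blue, left) with tetrazolidamide than in control, and dashed lines mark the shares over all expressed genes, 15.1% and 12.8%. Of V-type proton ATPase subunits 16 of 20 were higher, of proteasome subunits 27 of 40 were lower, and ribosomal, respiratory and muscle genes had few calls in either direction.

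Structural genes of the cuticle were the largest group that rose, with 28 of 48 larval and endocuticle proteins higher and 4 lower (median log2 fold change 2.41) and 48 of 99 other cuticle proteins higher and 3 lower (3.14). Summed transcripts of the second list took 5.70 ± 0.903% of all FPKM with tetrazolidamide and 1.89 ± 0.747% in control (SD, n = 3 each). For larval and endocuticle proteins the shares were 4.75 ± 0.637% and 4.37 ± 0.941%, since members at high levels went opposite ways. Cuticle protein CP14.6-like LOC118269378, the second most abundant gene with tetrazolidamide, had 12401, 9370 and 11055 FPKM against 2302, 1242 and 638 FPKM (log2 fold change 3.08, SE 0.52, adjusted p = 0.0019). Cuticle protein 1 (LOC118268279) had 9430, 7639 and 6868 against 3092, 3459 and 2775 FPKM (1.48, SE 0.20, adjusted p = 0.00056). Larval cuticle protein LCP-17-like LOC118282344 went down, with 2292, 3195 and 531 against 7370, 12736 and 8635 FPKM (-2.19, SE 0.49, adjusted p = 0.0076, and 0.066 in a fit of the 6 libraries). Pro-resilin-like LOC118267795, of the elastic cuticle protein family, had 2.35, 2.59 and 2.42 FPKM against 785, 232 and 756 FPKM (-7.76, adjusted p = 0.0051). Without control 2, 18 larval and endocuticle proteins were higher. In a fit of the 6 libraries 31 other cuticle proteins were higher and 1 larval or endocuticle protein was lower.

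Of 22 expressed tanning and pigmentation genes, whose products harden and colour cuticle, 6 were higher and 3 lower (27.3% and 13.6%, median -0.09). The shares over all expressed genes were 15.1% and 12.8%. Protein yellow-like LOC118264620 had 17.7, 22.6 and 19.8 FPKM against 1.73, 1.29 and 2.84 FPKM (log2 fold change 3.52, SE 0.37, adjusted p = 0.00014), and yellow-like LOC118264306 had 50.6, 54.8 and 49.5 against 12, 10.9 and 23.6 FPKM (1.9, adjusted p = 0.0008). Aromatic-L-amino-acid decarboxylase (LOC118272996), which makes dopamine from dopa, had 68.3, 52.4 and 65.0 against 8.75, 4.58 and 18.3 FPKM (2.74, adjusted p = 0.0021). The yellow-f2-like dopachrome tautomerase (LOC118281154) had 39.4, 31.5 and 36.6 against 5.84, 7.42 and 15.8 FPKM (2.06, adjusted p = 0.0013). The last 2 were chosen after their values were seen. A further 2 yellow-f2-like genes (LOC118280999 and LOC118280997), below the FPKM minimum of an expressed gene, were called lower. All 3 expressed members that fell were prophenoloxidases, blood enzymes of melanization. Subunit 1 (LOC118274789) had 3.64, 3.15 and 2.33 against 7.84, 15.2 and 24.6 FPKM (-2.23, SE 0.34, adjusted p = 0.0011), and subunit 2 (LOC118274553) 7.96, 5.50 and 3.78 against 13.9, 30.5 and 39.7 FPKM (-2.15, adjusted p = 0.0012).

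Of 19 expressed chitin turnover genes 2 rose and 2 fell (10.5% each, median 0.23), against 15.1% and 12.8% over all expressed genes. Chitin synthase LOC118273395, which builds the polymer of cuticle and gut lining, had 36.9, 25.1 and 42.7 FPKM against 7.73, 6.99 and 15.8 FPKM (log2 fold change 1.97, adjusted p = 0.0023). Chitin synthase LOC118273105 had 31.5, 21.2 and 37.0 against 9.59, 7.05 and 19.2 FPKM (1.52, adjusted p = 0.0097, and 0.068 in a fit of the 6 libraries). Chitinase domain-containing protein 1 (LOC118271970) fell to 2.83, 4.86 and 2.30, against 9.40, 10.4 and 8.61 FPKM (-1.4, adjusted p = 0.0014).

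Glycolysis genes that were called all fell. Of 18 expressed glycolysis genes 11 were lower and 0 higher (median log2 fold change -0.82), and their share of all FPKM was 0.208 ± 0.00852% with tetrazolidamide against 0.423 ± 0.108% in control (SD, n = 3 each). Besides the aldolases, the genes lower ran through the pathway and were chosen after their values were seen. Glucose-6-phosphate isomerase (LOC118277306) had 11.7, 12.7 and 8.27 FPKM against 28.2, 42.7 and 27.5 FPKM (-1.48, SE 0.18, adjusted p = 0.00042). Glyceraldehyde-3-phosphate dehydrogenase (LOC118271716) had 513, 584 and 539 against 1113, 1509 and 928 FPKM (-0.99, adjusted p = 0.0036, and 0.057 in a fit of the 6 libraries). Treated libraries were tight and all below the controls, among which control 2 was the highest for both. Phosphofructokinase (LOC118270306) and pyruvate kinase-like LOC118281561, at the committed and the last step, fell by 0.83 and 0.81, with adjusted p of 0.035 and 0.031. Both calls ended without control 1, control 2, tetrazolidamide 1 or tetrazolidamide 2 and in a fit of the 6 libraries, with adjusted p from 0.055 to 0.18, and the first also without tetrazolidamide 3 (0.06). Glycolysis genes lower numbered 5 when control 2 was left out, 6 when control 1, tetrazolidamide 1 or tetrazolidamide 2 was, and 3 in a fit of the 6 libraries.

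Enzymes of glycogen fell while trehalases rose. Glycogen phosphorylase (LOC118265183), which releases glucose from glycogen, had 9.19, 12.7 and 8.61 FPKM against 34.8, 39.9 and 29.1 FPKM (log2 fold change -1.65, SE 0.20, adjusted p = 0.00032). Trehalase cleaves trehalose, the blood sugar of insects. Its genes LOC118264322 and LOC118264318 rose, the first with 19.3, 13.2 and 17.9 against 5.02, 1.73 and 6.45 FPKM (2.10, adjusted p = 0.0033) and the second with 24.7, 13.8 and 13.4 against 7.18, 3.48 and 7.59 FPKM (1.64, adjusted p = 0.0069). In all, 2 of 10 trehalose and glycogen genes were higher and 4 lower (median -0.57), and 1 was lower without control 2, 2 without tetrazolidamide 1 or 2, and 1 in a fit of the 6 libraries. Arginine kinase (LOC118269617), which buffers ATP in insect muscle, had 720, 822 and 802 FPKM against 2374, 3249 and 1448 FPKM (-1.47, SE 0.26, adjusted p = 0.0024), among the 5 largest losses in FPKM.

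Few respiration and muscle genes were called. Of 64 oxidative phosphorylation genes 2 were higher and 2 lower (median 0.06), of 29 tricarboxylic acid cycle genes 0 were higher and 2 lower (0.06), and of 35 muscle structure genes 1 was higher and 3 lower (0.18). Muscle actin (LOC118279073), the most abundant gene of both groups, had 47451, 52723 and 65026 FPKM against 55378, 57758 and 34326 FPKM (adjusted p = 0.41). Muscle structure genes lower numbered 6 with DESeq2 or with limma-trend, 5 with counts in read pairs and 1 without tetrazolidamide 3.

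**Figure D3:**
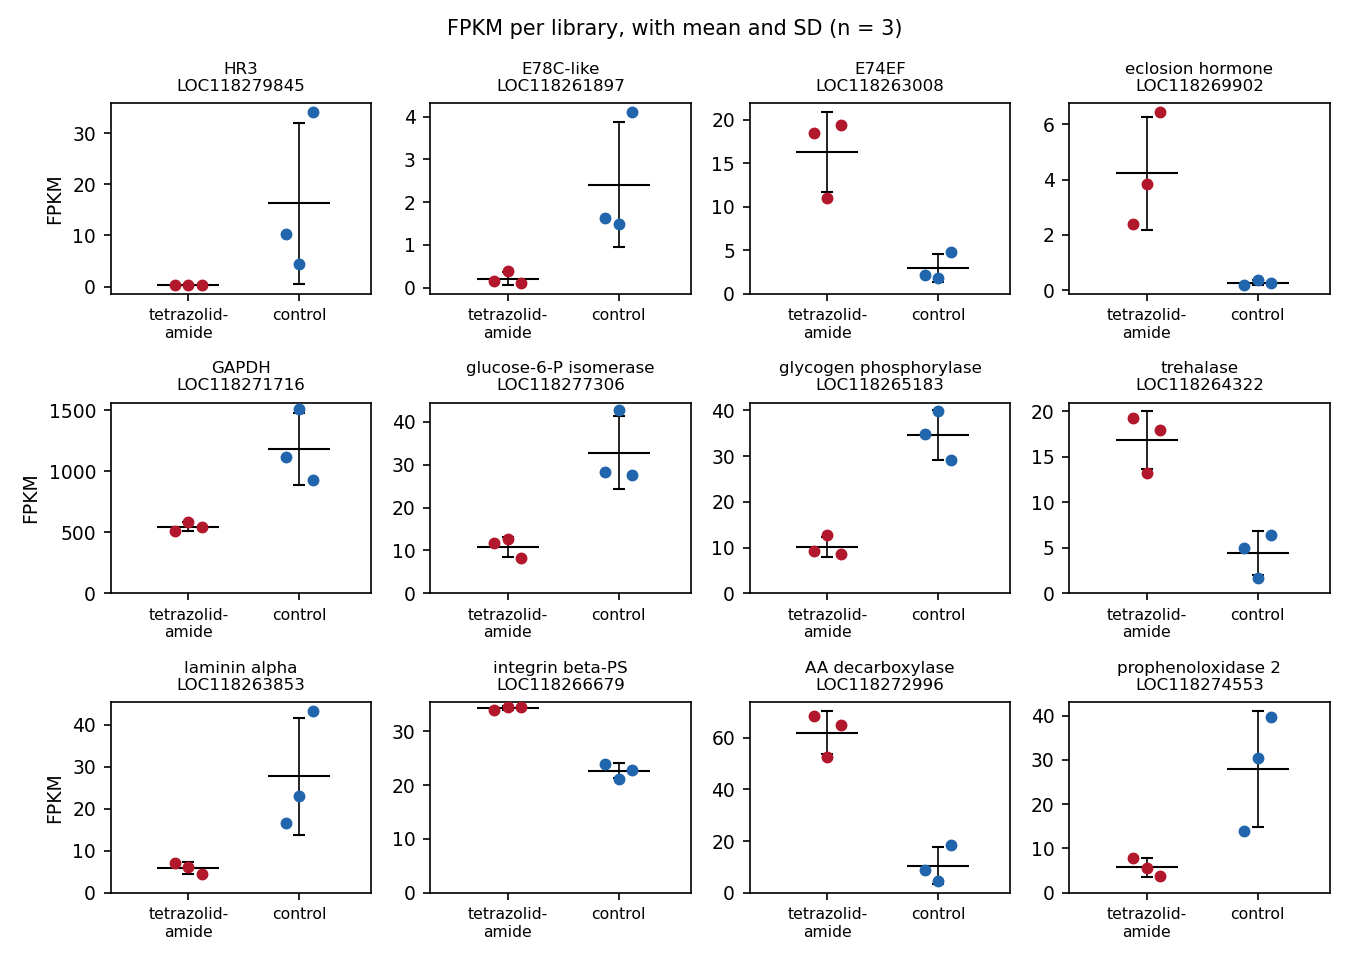
Each panel shows FPKM of 1 gene in the 3 tetrazolidamide libraries (red, left) and the 3 control libraries (blue, right), with the mean and SD as black lines. In every panel the groups do not overlap, and HR3, E78C-like, laminin alpha and prophenoloxidase 2 are highest in control 3.

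Proton pump, amino acid transporter and exopeptidase genes were higher more often than lower. Their lists rest on descriptions, and the tissue these transcripts came from was not tested. V-type proton ATPase subunits, which energise the midgut membrane of caterpillars, were higher for 16 of 20 and lower for 0 (median log2 fold change 0.89), and took 0.998 ± 0.076% of FPKM against 0.626 ± 0.131% in control (SD, n = 3 each). Amino acid transporters were higher for 9 of 29 and lower for 1 (0.52). Proton-coupled amino acid transporter-like protein pathetic (LOC118263387) had 23.7, 9.06 and 7.91 FPKM against 0.493, 0.785 and 0.951 FPKM (4.30, SE 0.45, adjusted p = 0.00012), and the related CG1139-like gene (LOC118268570) 10.4, 13.3 and 12.1 against 4.68, 5.25 and 5.09 FPKM (1.4, adjusted p = 0.00053). Of 64 exopeptidases, enzymes that trim peptides, 16 rose and 5 fell (0.29). These were 25.0% and 7.8%, against 15.1% and 12.8% over all expressed genes. Aminopeptidase N-like LOC118268349 had 54.4, 46.9 and 65.1 against 6.88, 7.56 and 6.77 FPKM (3.12, SE 0.29, adjusted p = 5.8e-05). It stood at the end of a row of 5 neighbouring aminopeptidase genes that all rose, by 1.02 to 3.12, over 78 kb. Exopeptidases higher numbered 7, 6 and 6 without control 2, tetrazolidamide 1 and tetrazolidamide 3, and 5 in a fit of the 6 libraries. Exopeptidases lower numbered 3 and 2 without control 1 and tetrazolidamide 2, 11 with DESeq2 and 8 with limma-trend on log2(FPKM + 1).

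Sugar-cleaving enzymes went down more often than up, with 7 of 30 lower and 2 higher (median -0.76). Alpha-amylase 4N-like LOC118266156, which digests starch, had 3.99, 1.72 and 4.34 FPKM against 91.3, 34.7 and 29.1 FPKM (log2 fold change -3.81, SE 0.68, adjusted p = 0.0025). Lactase-phlorizin hydrolase-like LOC118277675 had 5.26, 3.41 and 3.61 against 19.7, 11 and 13.8 FPKM (-1.73, adjusted p = 0.0037). The list had 11 lower with DESeq2 and 4 in a fit of the 6 libraries. Chymotrypsinogen B-like LOC118268184 had 488, 555 and 443 FPKM against 81.5, 72.3 and 100 FPKM (2.69, SE 0.24, adjusted p = 4.4e-05). Over all expressed genes 15.1% were higher and 12.8% lower. Its list of 71 trypsins and chymotrypsins had 16.9% and 8.5%, or 12 higher and 6 lower (0.41). Without tetrazolidamide 3 those counts were 7 and 3, without control 2 the lower count was 3, and in a fit of the 6 libraries it was 3.

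Lipid droplet and carrier genes had 20 of 47 higher and 5 lower (median 0.75). Niemann-Pick type 1B-like LOC118267562, which in flies takes up sterol in the gut, had 26.2, 22.3 and 27.0 FPKM against 4.93, 3.46 and 7.86 FPKM (log2 fold change 2.39, SE 0.28, adjusted p = 0.00028). Apolipophorins (LOC118280748), the blood lipid carrier, had 89.8, 61.6 and 18.2 against 146, 274 and 413 FPKM (-2.18, adjusted p = 0.008, and 0.064 in a fit of the 6 libraries). The lower count was 8 with DESeq2 and 2 in a fit of the 6 libraries.

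Of 56 extracellular matrix and integrin genes 11 were lower and 8 higher (median -0.25), 19.6% and 14.3%, against 12.8% and 15.1% over all expressed genes. Laminin is the trimer at the core of the basement membrane, and all 3 of its chains were lower. Subunit alpha (LOC118263853) had 7.11, 6.08 and 4.39 FPKM against 16.7, 23.1 and 43.4 FPKM (log2 fold change -2.09, SE 0.31, adjusted p = 0.00087). Subunit beta-1 (LOC118263280) had 3.80, 3.58 and 1.99 against 8.75, 9.44 and 22.2 FPKM (-1.96, adjusted p = 0.0022), and gamma-1 (LOC118261874) 6.32, 5.97 and 3.06 against 9.32, 11.2 and 23.2 FPKM (-1.37, adjusted p = 0.0061). Nidogen-1 (LOC118265117), which links laminin to collagen, had 10.9, 5.43 and 2.15 against 19.0, 22.7 and 41.2 FPKM (-2.05, adjusted p = 0.012). In each of these 4 genes control 3 was the highest and tetrazolidamide 3 the lowest library.

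Integrins anchor cells to that sheet. Integrin beta-PS (LOC118266679) had 33.9, 34.5 and 34.6 FPKM against 23.9, 21.2 and 22.9 FPKM (log2 fold change 0.74, SE 0.13, adjusted p = 0.0024), and beta-nu (LOC118272167) 5.27, 5.16 and 4.56 against 2.47, 2.05 and 2.63 FPKM (1.20, SE 0.13, adjusted p = 0.00019). Alpha-PS1 (LOC118268865) and alpha-PS2 (LOC118266613) rose by 0.85 and 0.83 (adjusted p = 0.0036 and 0.0058). A collagen alpha-1(I) chain-like gene (LOC118265974) had 46.9, 33.2 and 28.7 against 3.40, 0.652 and 1.15 FPKM (4.48, adjusted p = 0.0058). The beta-1 and gamma-1 laminins, nidogen, the alpha integrins and the collagen-like gene were chosen after their values were seen. In a fit of the 6 libraries 7 genes of the list were lower and 4 higher, and gamma-1 (0.065), nidogen (0.067) and alpha-PS2 (0.061) were not called.

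Silk genes fell from control levels that themselves varied widely. Fibroin heavy chain-like LOC118274569, the main thread protein of moth silk, had 6.31, 6.10 and 1.93 FPKM against 105, 101 and 1119 FPKM (log2 fold change -6.34, SE 1.48, adjusted p = 0.0097). Storage and silk proteins had 7 of 16 lower and 1 higher (median -1.71), and 3 lower without tetrazolidamide 3. The member that rose was arylphorin subunit alpha-like LOC118271708, an amino acid store of the blood, at 2.94, 5.40 and 5.24 against 1.51, 1.6 and 1.88 FPKM (1.6, adjusted p = 0.0019).

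Genes that export and degrade proteins were lower more often than higher. Proteasome subunits had 27 of 40 lower and 0 higher (median log2 fold change -0.65), and 17 lower in a fit of the 6 libraries. Of 51 endoplasmic reticulum folding and export genes 12 were lower and 1 higher (-0.32). Coatomer subunit alpha (LOC118270806), of the vesicle coat between Golgi and endoplasmic reticulum, had 7.30, 6.09 and 6.95 FPKM against 17.7, 18.1 and 17.9 FPKM (-1.26, SE 0.18, adjusted p = 0.00081). The catalytic subunit of the signal peptidase complex (LOC118268163), which trims secreted proteins, had 52.4, 47.3 and 42.8 against 95.3, 73.0 and 109 FPKM (-0.82, adjusted p = 0.0012). The export list had 19 lower with DESeq2, 7 without tetrazolidamide 2 and 4 in a fit of the 6 libraries. Of 78 splicing genes 22 were lower and 3 higher (-0.22), 28.2% and 3.8%, against 12.8% and 15.1% over all expressed genes. The splicing list had 7 lower and 1 higher in a fit of the 6 libraries, and 1 higher without control 2, control 3, tetrazolidamide 1 or tetrazolidamide 3. Cytosolic ribosomal proteins, at 21.6 ± 1.46% of FPKM against 22.6 ± 0.725% in control (SD, n = 3 each), had 3 of 84 higher and 2 lower (0.08).

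Of dividing-cell genes those called were lower, with 11 of 42 DNA replication and mitosis genes lower and 0 higher (median -0.54). Thymidylate kinase (LOC118281775), which makes a DNA precursor, had 2.17, 2.53 and 1.58 FPKM against 4.38, 4.93 and 7.75 FPKM (log2 fold change -1.30, SE 0.26, adjusted p = 0.0043). Condensin-2 subunit D3-like LOC118264909, which compacts chromosomes, had 1.88, 2.76 and 1.85 against 3.98, 5.60 and 7.25 FPKM (-1.23, adjusted p = 0.0027). Lower genes numbered 4 with control 2 left out, 19 with control 3, 6 with tetrazolidamide 1, 7 with tetrazolidamide 3, and 2 in a fit of the 6 libraries. It was 18 with DESeq2 or with limma-trend.

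Of 78 chaperones and heat shock proteins 12 rose and 7 fell (median 0.07), 15.4% and 9.0%, against 15.1% and 12.8% over all expressed genes. The small heat shock protein 22-like genes LOC118277109 and LOC118276752, which hold unfolded proteins, were low, the first at 8.30, 13.8 and 8.37 FPKM against 137, 81.2 and 354 FPKM (log2 fold change -4.06, SE 0.52, adjusted p = 0.0005) and the second at 4.57, 6.77 and 6.60 against 91.2, 59.1 and 410 FPKM (-4.75, adjusted p = 0.0015). Heat shock protein 70 (LOC118280663) had 2.21, 3.93 and 4.34 against 0.127, 0.510 and 0.359 FPKM (3.55, SE 0.51, adjusted p = 0.00086). In a fit of the 6 libraries 7 chaperones were higher and 2 lower. Of 40 antioxidant genes 9 were higher and 3 lower (22.5% and 7.5%, median -0.03). Thioredoxin-2 (LOC118276635), a small protein that reduces disulfides, had 521, 570 and 482 against 138, 127 and 148 FPKM (2.06, SE 0.14, adjusted p = 1.4e-05). Antioxidant genes lower numbered 8 with DESeq2, 6 with limma-trend and 5 with counts in read pairs, and 5 were higher in a fit of the 6 libraries.

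Genes of immune recognition, melanization, serpins and clip proteases were lower more often than higher. Over all expressed genes 12.8% were lower and 15.1% higher. Of 34 recognition and melanization genes 10 were lower and 2 higher (29.4% and 5.9%, median -0.40). Of 38 serpins and clip proteases 12 were lower and 8 higher (31.6% and 21.1%, median 0.23), above those shares in both directions. Spaetzle 4 (LOC118272073), of the ligand family of Toll receptors, had 0.806, 1.44 and 0.951 FPKM against 41.1, 16.9 and 76.7 FPKM (log2 fold change -5.22, SE 0.77, adjusted p = 0.00096). Scolexin B (LOC118269751), a serine protease-like blood protein of moths, had 351, 311 and 242 against 53.1, 50.6 and 94.3 FPKM (2.34, SE 0.29, adjusted p = 0.00038). Of 30 antimicrobial peptides and lysozymes 3 rose and 2 fell (-0.74). Lysozyme-like LOC118271940, an enzyme that cuts bacterial walls, had 253, 192 and 283 against 68.8, 111 and 71.3 FPKM (1.68, adjusted p = 0.0038), and the peptide gene described as cobatoxin long form B (LOC118263837) 19.0, 17.4 and 8.57 against 61.5, 60.8 and 55.6 FPKM (-1.88, adjusted p = 0.0019). Antimicrobial genes higher numbered 1 without control 1, control 2, tetrazolidamide 1 or tetrazolidamide 2 and in a fit of the 6 libraries. Serpins and clip proteases higher numbered 5 without control 1 or 2 and 4 without tetrazolidamide 3.

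Detoxification genes were mixed. Carboxyl/cholinesterases had 15 of 63 expressed members higher and 5 lower (23.8% and 7.9%, median 0.46). ABC transporters, which pump compounds out of cells, had 14 of 38 higher and 1 lower (median 0.61), and 7 higher in a fit of the 6 libraries. Multidrug resistance protein 1-like LOC118262637 had 14.1, 8.87 and 12.1 FPKM against 2.31, 3.07 and 5.78 FPKM (log2 fold change 1.83, SE 0.31, adjusted p = 0.002). Glycosyltransferases had 6 of 27 higher and 2 lower (22.2% and 7.4%, median 0.27), against 15.1% and 12.8% over all expressed genes. A gene described as a 2-hydroxyacylsphingosine 1-beta-galactosyltransferase (LOC118266879) had 11.6, 11.7 and 16.5 against 3.92, 2.77 and 2.99 FPKM (2.19, SE 0.28, adjusted p = 0.00051). Glycosyltransferases higher numbered 3 without control 1 or 2 and in a fit of the 6 libraries. Of 28 expressed CYP6 and CYP9 P450s, enzymes that oxidise plant and synthetic poisons, 3 rose and 5 fell (0.21). These were 10.7% and 17.9%, against 15.1% and 12.8% over all expressed genes. Leaving out single libraries gave 1 to 6 higher and, for every library but control 2, 2 or 3 lower. P450 6B7-like LOC118279736 had 21.0, 25.3 and 19.6 against 2.32, 4.11 and 10.3 FPKM (2.16, adjusted p = 0.0034), and CYP6B68 (LOC118273914) 6.88, 6.88 and 5.50 against 31.2, 13.2 and 22.2 FPKM (-1.67, adjusted p = 0.0027). P450 6k1-like LOC118263012 fell further, with 2.68, 0.795 and 0.807 against 36.9, 28.5 and 33.9 FPKM (-4.42, SE 0.45, adjusted p = 0.00011).

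Nerve and muscle proteins that insecticides are known to bind were looked at by family. Of 4 glutamate-gated chloride channel genes 2 were expressed and 0 called (median 0.06). Of 13 GABA receptor genes 2 were expressed. Subunit gene LOC118266945, of the chloride channel that quiets insect neurons, had 1.59, 1.05 and 1.57 FPKM against 8.12, 7.05 and 2.70 FPKM (log2 fold change -1.97, SE 0.39, adjusted p = 0.0043, and 0.057 in a fit of the 6 libraries). The other expressed GABA receptor gene (LOC118277195) had 1.16, 1.39 and 1.08 against 1.31, 1.54 and 1.06 FPKM (adjusted p = 0.98). Of 17 nicotinic acetylcholine receptor subunits 3 were expressed, 1 fell and 0 rose. LOC118279341 had 1.44, 1.26 and 0.822 against 1.5, 3.14 and 6.66 FPKM (-1.52, adjusted p = 0.033). Its adjusted p was 0.055 to 0.13 without control 2, control 3 or any tetrazolidamide library, 0.11 in a fit of the 6 libraries and 0.065 with limma-trend on log2(FPKM + 1). The voltage-gated sodium channel gene (LOC118273910) was not among the expressed genes, at 0.542, 0.539 and 0.804 against 0.715, 1.03 and 0.653 FPKM (adjusted p = 0.68).

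Of 14 genes described as acetylcholinesterase-like 6 were expressed, 4 rose and 0 fell (median 1.70). LOC118275479 had 6.93, 4.55 and 7.07 FPKM against 0.788, 0.760 and 2.53 FPKM (log2 fold change 2.38, SE 0.48, adjusted p = 0.0046). LOC118275550 had 5.27, 2.69 and 6.22 against 0.932, 1.07 and 2.17 FPKM (1.96, adjusted p = 0.0081). The count was 2 without control 1, tetrazolidamide 1 or tetrazolidamide 3 and in a fit of the 6 libraries. The description does not tell the synaptic enzyme from other esterases of its family. Of the 2 ryanodine receptor genes, the calcium release channel of muscle, LOC118277034 had 13.4, 12 and 17.4 against 9.37, 10.2 and 6.0 FPKM, and its adjusted p of 0.048 became 0.067 with control 1 left out, 0.15 with control 3, 0.074 with tetrazolidamide 1 and 0.19 with tetrazolidamide 3 left out. It was 0.052 with DESeq2 size factors, 0.058 with no filter on low counts and 0.15 in a fit of the 6 libraries. LOC118276673 had 18.6, 17.8 and 20.4 against 28.3, 26.5 and 18.8 FPKM (adjusted p = 0.54).

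Called genes also lay side by side on the genome. Taking all 15505 tested genes in the order of the table's coordinates, whose build is not given in the sources used here, 28 runs of 5 or more neighbours were called in 1 direction, 12 of them higher with 68 genes and 16 lower with 108 genes. Over these 15505 genes 10.9% were called higher and 11.4% lower, and how many runs such shares give was not tested. Runs could hold tested genes below the FPKM minimum of an expressed gene. Some runs that rose held members of 1 family, such as endocuticle structural glycoproteins, pupal cuticle proteins C1B-like and the aminopeptidases. The longest run was lower, with 11 genes, 4 of them expressed, from 13194818 to 13763230 on sequence NC_049723.1. It held a mitochondrial ribosomal protein, a mucin, a protease, a lysyl oxidase, ABC transporters, a phosphatase subunit, Sm D2 and a metalloproteinase.

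Each of 7 genes in that stretch shared its description with 1 other gene on the same sequence. These others lay 899 to 951 kb further on, from 14093694 to 14746657, in the same order for 7 of 7. A run of 6 neighbours called higher lay in the second stretch and carried the descriptions mucin-5AC-like, transmembrane protease serine 9-like, lysyl oxidase homolog 3A, ABC transporter G family members 20 and 23 and the PP2A subunit. The first stretch was picked as a run of genes called lower, so that all 7 of its copies were lower was fixed by that choice. Of these 7, 3 had no read in the 3 treated libraries. In the second stretch 5 of the other copies were higher. The 28S ribosomal protein S25 copy that fell (LOC118270711) had 0.0890, 0 and 0.0688 FPKM against 2.62, 1.53 and 2.87 FPKM in control. Its partner (LOC118270730) had 11.6, 12.2 and 11.5 against 4.45, 3.96 and 3.15 FPKM. For lysyl oxidase homolog 3A, which crosslinks matrix proteins in other animals, LOC118270335 had no reads in the treated libraries against 1.45, 1.25 and 0.796 FPKM, at least 31.6-fold lower. Its partner LOC118270734 had 8.06, 7.33 and 11.4 against 2.24, 1.48 and 1.20 FPKM (log2 fold change 2.59, adjusted p = 0.00039). For Sm D2, a core protein of the splicing machinery, LOC118270397 had no reads against 16.0, 14.9 and 13.5 FPKM, at least 146-fold lower, and its partner LOC118270441 had 29.8, 33.6 and 23.7 against 29.0, 29.4 and 22.9 FPKM (adjusted p = 0.4). The lysyl oxidase genes and the Sm D2 partner were chosen after their values were seen. With the 2 copies of each description summed, 5 of the 7 sums were called, and Sm D2 differed by -0.43 (adjusted p = 0.048).

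**Figure D4:**
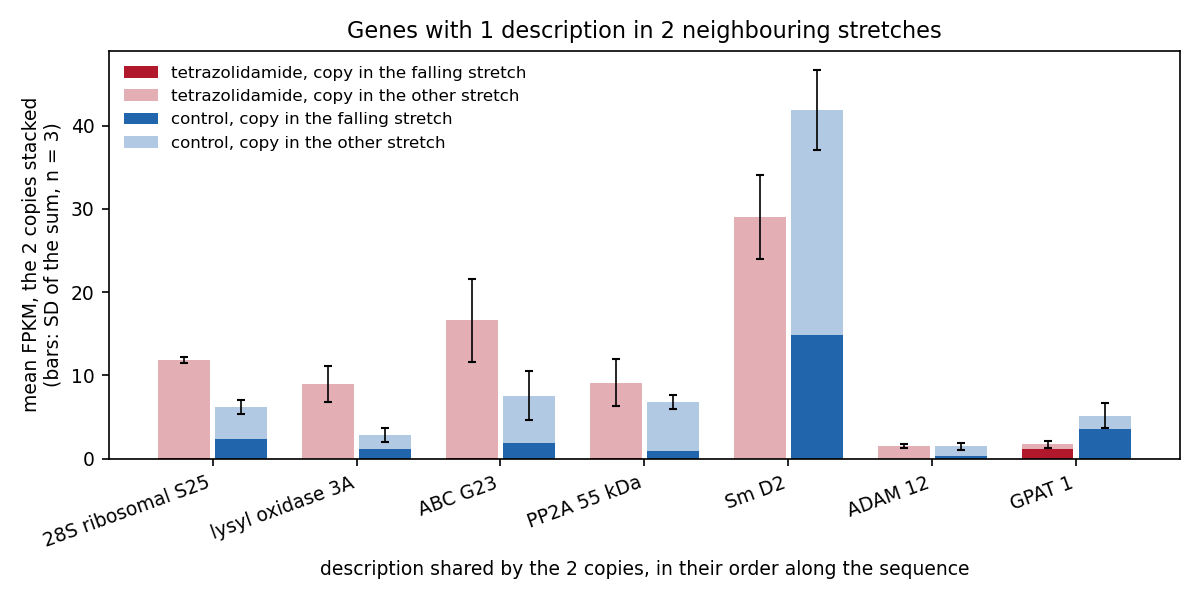
Stacked bars give mean FPKM of 2 genes with 1 description for tetrazolidamide (red, left) and control (blue, right), the dark part for the copy in the falling stretch and the pale part for the copy in the other stretch, with the SD of the sum over 3 libraries. The dark part is absent or too thin to see with tetrazolidamide for all but the last description, glycerol-3-phosphate acyltransferase 1, in which both copies fell.

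The same was looked for over all descriptions carried by exactly 2 genes on 1 sequence, an analysis chosen after the data were seen. Of 1062 such pairs with both genes tested and an expressed member, 97 had both copies called in 1 direction, 30 had them called in opposite directions and 316 had 1 copy called. Of the 30 opposite pairs, 22 had a sum that was not called, 7 a higher and 1 a lower sum. The median size of the log2 fold change was 1.08 for the copies that rose, 1.57 for those that fell and 0.21 for the sums. Choosing pairs with opposite calls favours large changes of single copies and small changes of their sums, so these sizes and the count of sums not called are a description. Mitochondrial ribosomal protein L51 shows the form, with 14.9, 14.5 and 15.6 FPKM against 7.32, 7.79 and 6.31 FPKM for LOC118262732 and 1.72, 0.751 and 2.35 against 11.9, 8.28 and 9.08 FPKM for LOC118262605. The 2 together had 16.6 ± 1.35 and 16.9 ± 2.04 FPKM (SD, n = 3 each), a log2 fold change of 0.10 (adjusted p = 0.77). Ribosomal protein S21, of the small cytosolic subunit, had 541, 596 and 609 against 255, 115 and 228 FPKM for LOC118279823 and 190, 196 and 211 against 445, 477 and 424 FPKM for LOC118280046, with a sum not called (0.12, adjusted p = 0.67). Copies of the decapping enzyme m7GpppX diphosphatase changed by 2.07 (LOC118276786) and -0.98 (LOC118276795), with adjusted p = 0.54 for the sum. Translation factor eIF3I (LOC118262336 and LOC118262788) changed by 0.78 and -1.64, with adjusted p = 0.26 for the sum. A pair whose sum did rise was multiple epidermal growth factor-like domains protein 11, at 29.6, 32.2 and 29.1 against 4.4, 4.21 and 8.34 FPKM summed (2.60, adjusted p = 0.00022).

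In these 30 pairs the copy called lower gave a median of 12.6% of the summed FPKM with tetrazolidamide, against 45.8% in control, a split fixed by how the pairs were chosen. In the other treatments, whose libraries entered the fit behind the calls but not the contrast, the median was 43.3% for emamectin benzoate, 33.0% for cyantraniliprole and 43.7% for spinetoram. Whether reads of 1 gene were counted at the other copy was not tested, so fold changes of single copies are uncertain where a near-identical copy exists. Summing the pairs left 2676 expressed entries called of 9512.

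**Figure D5:**
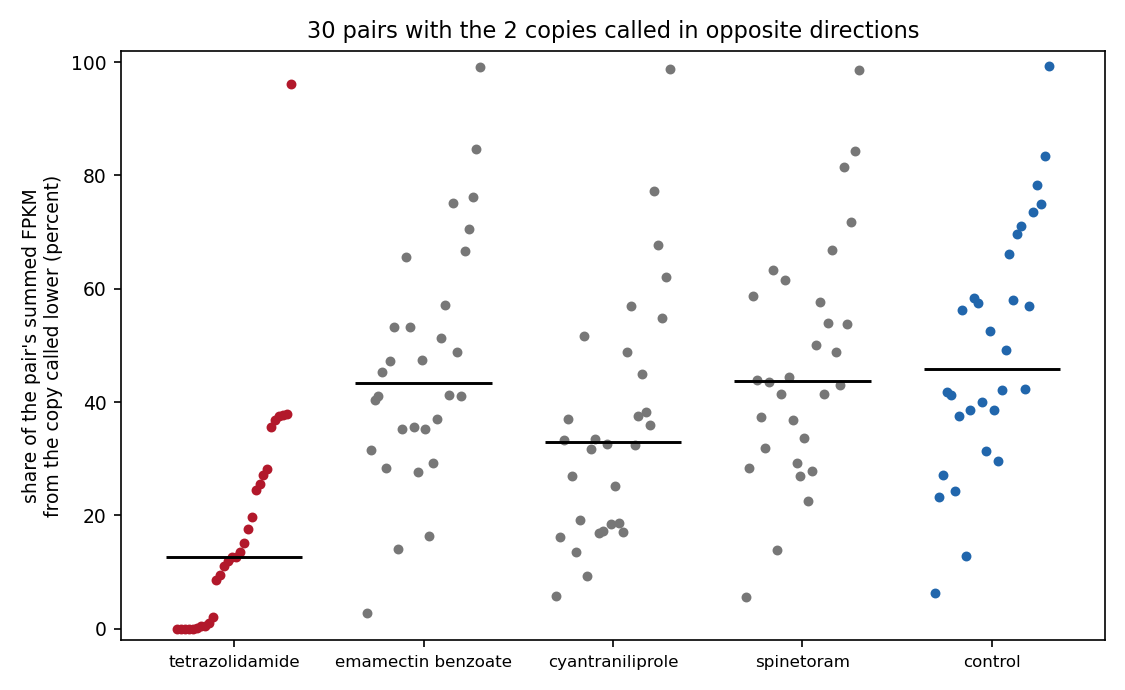
Each point is 1 of 30 pairs of genes with the same description whose copies were called in opposite directions, placed by the group mean of the percent of the pair's summed FPKM that came from the copy called lower, and lines mark medians. Tetrazolidamide lies lowest at 12.6%, cyantraniliprole at 33.0%, and the other 3 groups lie from 43.3% to 45.8%.

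Against the mean of the other 3 treatments, tetrazolidamide had 1384 expressed genes higher and 1086 lower, 24.0% in all (13.5% higher and 10.6% lower). By limma-trend on log2(FPKM + 1) 986 were higher and 1230 lower. This contrast shares the tetrazolidamide libraries with the one against control. Mitochondrial ribosomal proteins had 35 of 87 higher and 2 lower against the other treatments (median 0.50), and 7 higher and 2 lower against control (0.10). Ribosome biogenesis genes had 28 of 68 higher and 0 lower against the other treatments (0.35), and 9 higher and 3 lower against control (0.07). Against control the mitochondrial count was 16 without control 1 and 4 without control 2, control 3 or tetrazolidamide 1, and the biogenesis count 3 to 5 without control 1, control 2, tetrazolidamide 2 or tetrazolidamide 3. In a fit of the 6 libraries they were 3 and 2. Antimicrobial peptides and lysozymes had 11 of 30 lower and 2 higher against the other treatments (-2.43). Trypsins and chymotrypsins had 17 of 71 lower and 4 higher (-1.46), where midgut markers summed to 7734 to 31808 FPKM in the 9 other libraries. The midgut markers themselves include trypsins.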

How the data were processed

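Per the labels' protocols, libraries were stranded (dUTP) and made from poly(A) RNA. The submitters' processing notes name edgeR, DESeq2, StringTie 1.3.4d, cutadapt 1.9 and HISAT2 2.0.4, without their roles and without a genome build. Estimated counts, 1 value per gene and library, are deposited by the authors, which step by about 3.84 units for 1 read pair. FPKM made by the authors stand beside them, with a placeholder for genes without reads that was taken as 0.

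Estimated counts were tested with edgeR 4.0.16 in R 4.3.3 (quasi-likelihood, TMM, filterByExpr over the groups, minimum count 10). The fit held all 15 libraries, and 15505 genes were tested. Calls are Benjamini-Hochberg adjusted p under 0.05, two-sided, adjusted over the 15505 genes. Exact tests of 3 against 3 libraries cannot go below 0.1, so none was used. The common dispersion was 0.3. Bounds on the fold of genes without reads in a group took 3 read pairs over that group as the floor, which covers counting error only.

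The 61 lists are patterns on the deposited descriptions, which rest on similarity to other species. The comparison, its members, the lists and the tests were chosen with earlier results of these data known. Genes named were drawn from the 10 largest rises and falls without overlap at a mean of 10 FPKM or more and from receptor and channel genes. Up to 2 called members of each list with the smallest p in each direction were candidates, and not all are named. The 5 most abundant genes, the 5 largest changes in FPKM and runs of neighbours were candidates too. Genes from outside these groups are marked as chosen after their values were seen. The other settings tried were the 6 libraries alone, no low-count filter, a higher FPKM minimum, DESeq2 1.42.0, edgeR with DESeq2 size factors, limma-trend (limma 3.58.1) on log2(FPKM + 1) and log2(FPKM + 0.1), counts in read pairs, a test against a 2-fold change, and each library left out in turn. The test scripts were tested on simulated data. No sequence was used.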

Additional observations from a re-analysis of the deposited data

Results flagged for a closer look

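The difference between tetrazolidamide and the mean of the other 3 treatments was tested for the genes with the largest called changes against control, in fold or in FPKM. Of these, 26 differed from the other treatments too (edgeR, adjusted p under 0.05). The genes were picked for large changes in the same tetrazolidamide libraries, which favours such calls. Their number therefore cannot be set against the 24.0% called over all expressed genes. Those not called were the histidine-rich protein PFHRP-II-like genes LOC118262126 (adjusted p = 0.053) and LOC118261991 (0.069) and synaptic vesicle glycoprotein 2C-like LOC118270044 (0.15). Higher log2 fold changes were 7.16 for organic cation transporter protein-like (LOC118280301), 7.67 for peritrophin-44-like (LOC118279986) and 6.48 for cuticle protein 19-like (LOC118275749). Also higher, the values were 7.16 for mediator of RNA polymerase II transcription subunit 15-like (LOC118276931), 6.98 for abscisic acid and environmental stress-inducible protein-like (LOC118276284) and 7.33 for abscisic acid and environmental stress-inducible protein-like (LOC118271288). Further genes above the other treatments had 6.36 for mediator of RNA polymerase II transcription subunit 15-like (LOC118276902), 5.80 for trypsin-1-like (LOC118271895) and 7.19 for sarcoplasmic reticulum histidine-rich calcium-binding protein-like (LOC118278096). In the same direction came 5.41 for REPAT46 (LOC118277173), 1.95 for larval cuticle protein LCP-30-like (LOC118282342) and 1.75 for cuticle protein CP14.6-like (LOC118269378). Above the mean of the treatments also stood 0.66 for cuticle protein 1 (LOC118268279), 0.78 for muscle-specific protein 20 (LOC118263617) and 2.23 for cuticle protein CP14.6-like (LOC118268277). Lower log2 fold changes were -11.85 for probable small nuclear ribonucleoprotein Sm D2 (LOC118270397), -7.16 for cholinesterase 1-like (LOC118262776) and -8.56 for fructose-bisphosphate aldolase-like (LOC118275099). Also lower, the values were -5.91 for acidic repeat-containing protein-like (LOC118281870), -5.44 for putative cuticular protein (LOC118275417) and -5.87 for acidic repeat-containing protein-like (LOC118264687). Further genes below the other treatments had -5.34 for glycine-rich protein DOT1-like (LOC118279384), -1.83 for larval cuticle protein LCP-17-like (LOC118282344) and -0.86 for larval cuticle protein 1-like (LOC118261853). In that direction came also -1.99 for 15-hydroxyprostaglandin dehydrogenase (LOC118264064) and -0.87 for arginine kinase (LOC118269617). Fitted values of genes with no reads in a group depend on the prior count. Both contrasts share the tetrazolidamide libraries.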

How the results depend on the processing

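Calls of expressed genes against control numbered 2868. A fit of the 6 libraries alone gave 1513 (865 higher and 648 lower), a threshold of a 2-fold change 609 (347 and 262), and genes of at least 5 FPKM in 3 libraries 1811, of which 683 were lower. At that minimum the contrast with the other 3 treatments gave 1585 calls, 586 of them lower, against 2470. Fewer genes enter at the higher minimum, and for the other settings the cause was not tested. DESeq2 gave 3684 calls against control. Leaving out 1 library gave 2043 to 2832 calls, with 1120 to 1515 higher and 903 to 1317 lower. Of 285 named genes, 62 calls ended in the fit of 6 libraries and 20 to 40 when 1 library was left out, and no call turned its direction in these settings.

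Deviations of libraries with the same number had correlations of -0.203, 0.073 and -0.218 for numbers 1, 2 and 3. For unlike numbers they reached 0.258. So few values cannot exclude a shared batch, and the labels do not say that equal numbers mark paired samples. With the replicate block 2620 genes were called against control and 2200 against the other treatments, and no sample pairing was used. With 3 libraries a group and a biological coefficient of variation of 54.8%, small changes are hard to detect.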
